A study of Oryza sativa with 12 samples.

Results

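The 150 gene IDs described here had more reads in leaves given any of 3 treatments than in leaves given water. They were chosen by the measured levels themselves, so their excess over water describes the choice. Test calls against water are given further on as a description only. Levels are in CPM, reads of an ID relative to all reads of the IDs in its library that passed a filter on low counts. The library sizes were first scaled by TMM (trimmed mean of M-values). An ID was taken if each of the 9 treated libraries lay above each of the 3 water libraries, if every treated group had a mean at least 1.3 times the water mean, and if the mean over the 12 libraries was 5 CPM or more. Of 88438 IDs counted and 21381 that passed the filter on low counts, 175 met the rule, which is 0.818% of those tested. The 150 with the largest ratio of treated to water mean were kept as members and the other 25 were left out by that cap. By the rule, all 150 members are among the tested IDs.

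RNA was sequenced from leaves of TU100, an indica hybrid rice, at an age of 1 month. The 4 groups of 3 libraries were water, azoxystrobin, VdAL, and both agents together, which is called the combination. For doses, times of sampling and plants per library the labels give no values, and they mention 4 areas without tying libraries to them, so an area and a treatment cannot be told apart if each treatment had its own. The labels do not say that the libraries of a group came from separate plants, so p-values reflect only how far these libraries scatter, which may be technical. In whole leaf tissue, more cells of a type and more RNA per cell cannot be told apart.

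Azoxystrobin is a strobilurin fungicide that binds complex III of the mitochondrial respiratory chain and blocks electron flow there. Plant mitochondria have the same complex, together with an alternative oxidase that can take electrons before it. VdAL is not spelled out in the labels. The abbreviation is used elsewhere for a protein secreted by the wilt fungus Verticillium dahliae that is applied to crops to raise their defences, but the labels do not say that this is the agent meant. Gene names do not accompany the IDs in the files, and 0 IDs matched the reference gene table. The respiratory and defence genes that would be looked for first could therefore not be found, and no function is given to any member. The defining genes of leaf tissue could not be checked for the same reason.

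Reads assigned to genes ranged from 6444650 to 10144564 per library. The members together took 0.735% to 0.779% of these reads in the water libraries and 1.11% to 1.41% in the treated libraries. A member had a median of 129.5 to 331.5 reads per library, and the lowest count of any member was 8 reads, in water replicate 3. Reads that did not align uniquely made up 9.01% to 16.1% of reads in water, 12.1% to 15.7% in azoxystrobin, 12.6% to 13.03% in the combination and 15.3% to 22.4% in VdAL, the highest share being that of VdAL replicate 1. The summed level of the members was 7805 ± 231 CPM (SD, n = 3) in water, 11917 ± 114 CPM in azoxystrobin, 12671 ± 887 CPM in VdAL and 12388 ± 479 CPM with both agents.

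Most members differed from water by well under 2-fold. The ratio of treated to water mean had a median of 1.57 over the 150 IDs, ran from 1.41 to 2.87, and reached 1.5 in 97 of them and 2 in 12. Group by group, azoxystrobin had a median ratio of 1.54, VdAL one of 1.56 and the combination one of 1.55. Every treated group was at least 1.5 times water in 56 members and at least 2 times water in 4 members. Medians over the members ran from 0.54 to 0.68 in the 9 treated libraries, on the log2(CPM + 0.5) scale relative to the water mean. The rule set each of these libraries above water, so their closeness is partly a product of the choice. VdAL replicate 1 had the lowest of these medians and the VdAL replicates 2 and 3 the highest.

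**Figure D1:**
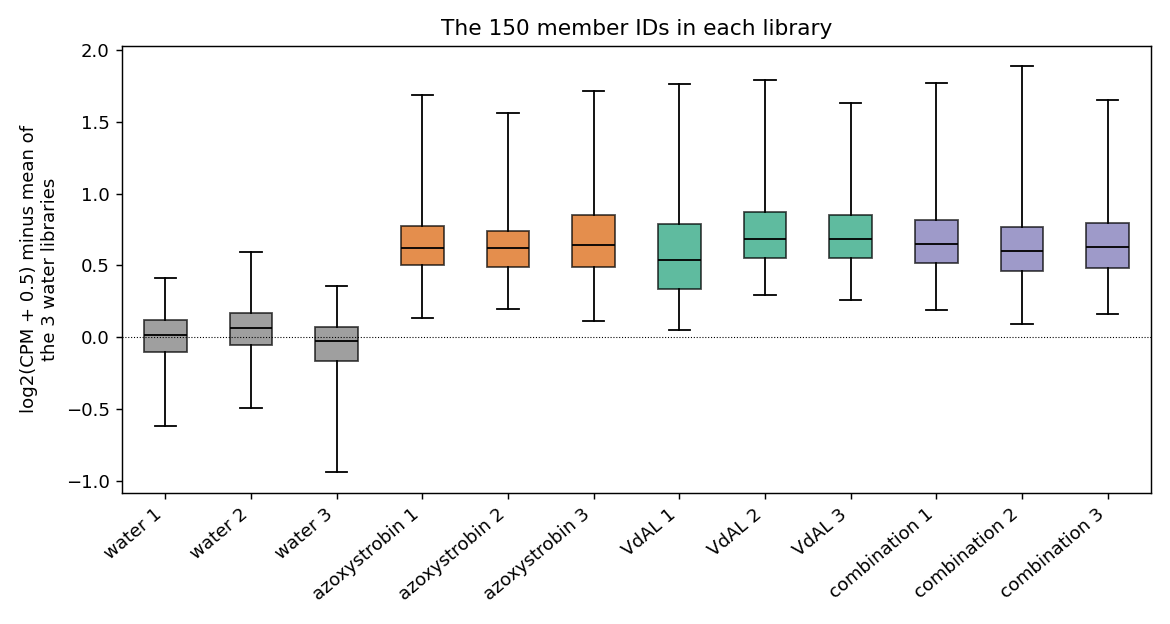
Level of the 150 members in each of the 12 libraries, as log2(CPM + 0.5) minus the mean of the 3 water libraries for the same ID. Boxes span the quartiles, the line is the median and whiskers reach the lowest and highest member. Treated medians lie between 0.54 and 0.68, and the box of VdAL replicate 1 reaches lowest among the treated libraries.

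The largest ratio belonged to BGIOSGA007489. It stood at 12.7, 12.99 and 10.23 CPM in the water libraries, at 39.5, 36.1 and 17.9 CPM in azoxystrobin, at 41.5, 33.5 and 37.9 CPM in VdAL, and at 41.8, 24.2 and 36.9 CPM with both agents. Azoxystrobin replicate 3 and combination replicate 2 were the low libraries within their groups, and both were still above all water libraries. The fitted log2 difference from water was 1.37 (SE 0.26) in azoxystrobin, 1.65 (SE 0.26) in VdAL and 1.51 (SE 0.26) with both agents. These SEs are those of the quasi-likelihood model of edgeR, fitted to the 12 libraries together.

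BGIOSGA011688 came next by ratio, and it was also the member with the lowest mean level, just inside the threshold of 5 CPM. It had 1.45, 2.92 and 2.34 CPM in water, 5.35, 5.48 and 6.74 CPM in azoxystrobin, 4.41, 4.99 and 5.36 CPM in VdAL, and 6.89, 9.34 and 6.02 CPM with both agents. The lowest treated library was 1.51 times the highest water library, the widest such gap among the members. The counts behind it are small, with 10, 29 and 16 reads in the water libraries and 38 to 63 reads in the treated ones. Against water it was higher by 1.36 (SE 0.32) in azoxystrobin, 1.11 (SE 0.32) in VdAL and 1.70 (SE 0.32) with both agents on the log2 scale.

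A pair of further members, named after their values were seen, reached 2-fold in every treated group. BGIOSGA004711 stood at 22.4 ± 4.797 CPM (SD, n = 3) in water, 52.0 ± 12.9 CPM in azoxystrobin, 59.8 ± 14.1 CPM in VdAL and 61.9 ± 10.1 CPM with both agents. Its treated libraries ran from 37.3 to 72.7 CPM and its water libraries from 18.4 to 27.7 CPM. BGIOSGA020392 was far lower in reads, at 3.02 ± 1.61 CPM in water, 7.24 ± 2.54 CPM in azoxystrobin, 7.07 ± 2.78 CPM in VdAL and 6.66 ± 0.716 CPM with both agents. In that ID water replicate 3 was at 1.17 CPM while water replicates 1 and 2 were at 3.76 and 4.13 CPM, and the lowest treated library stood at 4.65 CPM.

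The members that took most reads, BGIOSGA004313 and BGIOSGA029381, held 20.4% of the summed mean level of all members. CPM is not corrected for gene length, so this ranks them by reads and not by transcript number. BGIOSGA004313 was even in water, at 781, 767 and 803 CPM. It stood at 1074, 1308 and 1107 CPM in azoxystrobin, at 1256, 1203 and 1377 CPM in VdAL, and at 1598, 1434 and 1313 CPM with both agents. The means against water were 1.48, 1.63 and 1.85 times, in the same order of groups, and the highest azoxystrobin library, at 1308 CPM, lay just under the lowest combination library, at 1313 CPM.

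BGIOSGA029381 had 817, 707 and 670.1 CPM in water and 1215, 1123 and 1067 CPM in azoxystrobin. In VdAL it had 1159, 1412 and 1471 CPM, and in the combination 1329, 1191 and 1212 CPM. VdAL replicate 1 was the low library of its group and lay among the azoxystrobin values. The fitted log2 differences from water were 0.63 (SE 0.12) in azoxystrobin, 0.88 (SE 0.12) in VdAL and 0.77 (SE 0.12) with both agents.

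**Figure D2:**
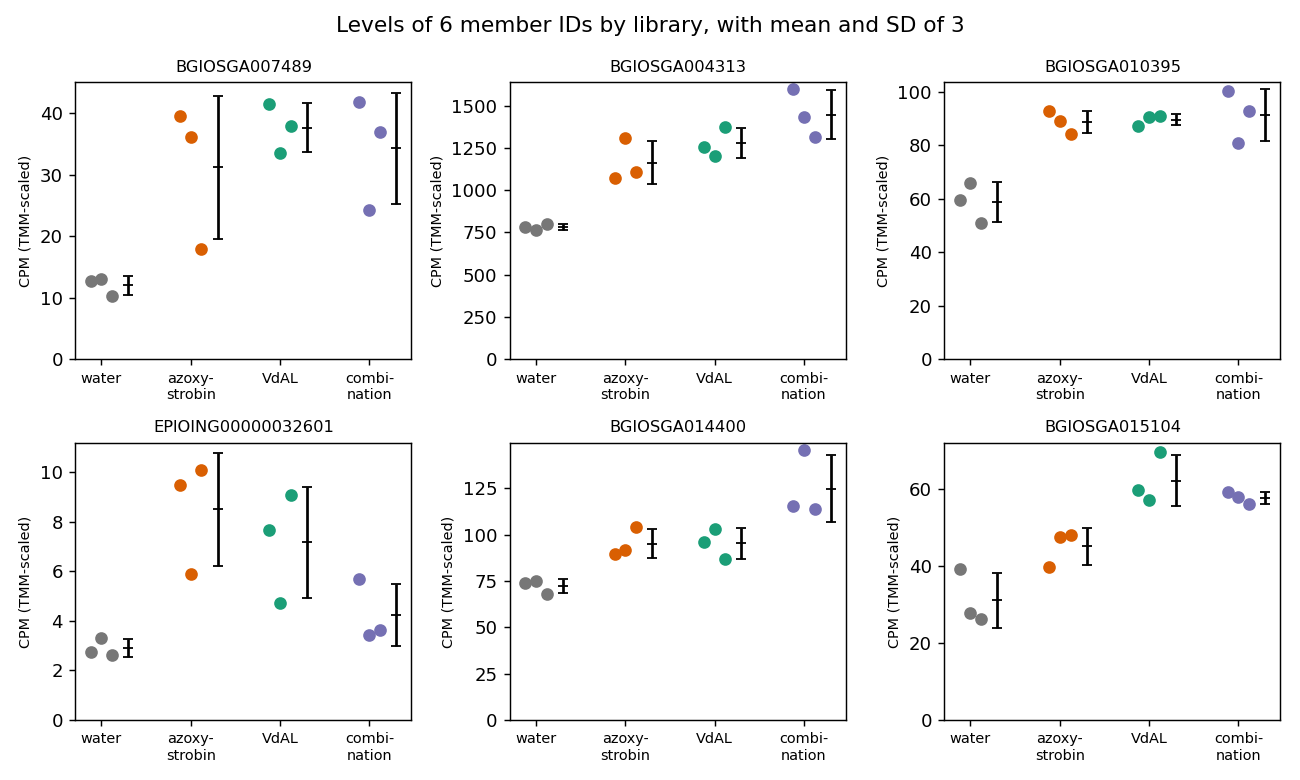
TMM-scaled CPM of 6 members in the 12 libraries. Points are libraries and the black marks are the mean ± SD of 3. BGIOSGA010395 is near level over the treated groups, EPlOING00000032601 is lower in the combination than in azoxystrobin, BGIOSGA014400 is higher in the combination and BGIOSGA015104 is higher in VdAL than in azoxystrobin.

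Evenness over the 9 treated libraries varied among members, with coefficients of variation from 6.15% to 38.4% and a median of 13.4%. The most even member was BGIOSGA010395, at 59.4, 65.8 and 50.8 CPM in water. Its treated values were 92.7, 89.1 and 84.3 CPM in azoxystrobin, 87.25, 90.55 and 90.8 CPM in VdAL, and 100.1, 80.8 and 92.8 CPM with both agents. The least even was EPlOING00000032601, which was also the EPlOING member of largest ratio. It had 2.75, 3.32 and 2.63 CPM in water, 9.49, 5.90 and 10.1 CPM in azoxystrobin, 7.69, 4.72 and 9.10 CPM in VdAL, and 5.68, 3.41 and 3.64 CPM with both agents, so that combination replicates 2 and 3 were close to water.

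For the 15558 tested IDs with a mean of 5 CPM or more, the median coefficient of variation over the treated libraries was 15.8%. Within groups the members' median was 12.99% in water, 10.7% in azoxystrobin, 14.1% in VdAL and 10.7% with both agents, against 15.9%, 12.8%, 13.2% and 11.9% for those 15558 IDs. The rule favours IDs that vary little between water libraries, and the VdAL group is the one in which the members varied more than the background. IDs whose name starts with EPlOING made up 6 of the 150 members, or 4%, against 2.76% of the tested IDs at 5 CPM or more and 6.08% of all tested IDs. The members' mean level had a median of 29.6 CPM and a range from 5.11 to 1169 CPM, beside a median of 25.3 CPM for the tested IDs at 5 CPM or more.

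The requirement that no treated library fall to the water range was met by 449 IDs, or 2.1% of those tested. Of these, 247 had a treated group below 1.3 times water and 27 were below 5 CPM, which leaves the 175. Conversely 241 IDs met the level and ratio thresholds and failed on overlap alone. The narrowest separation among members was in BGIOSGA031778, where VdAL replicate 1 and water replicate 3 both rounded to 117 CPM and the other 8 treated libraries ran from 168 to 211 CPM. Just outside lay BGIOSGA007625, whose lowest treated library, at 3.92 CPM, was below its highest water library, at 3.93 CPM.

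The other thresholds also had IDs close to them on either side. BGIOSGA013462 was the member nearest to the group ratio of 1.3, with azoxystrobin at 1.304 times water (264 ± 39.1 against 203 ± 6.88 CPM), and BGIOSGA012546 missed it with the combination at 1.2998 times water (41.4 ± 5.50 against 31.9 ± 0.531 CPM). BGIOSGA016795 was the last ID inside the cap with a treated to water ratio of 1.41, and BGIOSGA021448 the first outside with 1.39. BGIOSGA029977 missed the level threshold with a mean of 4.93 CPM.

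**Figure D3:**
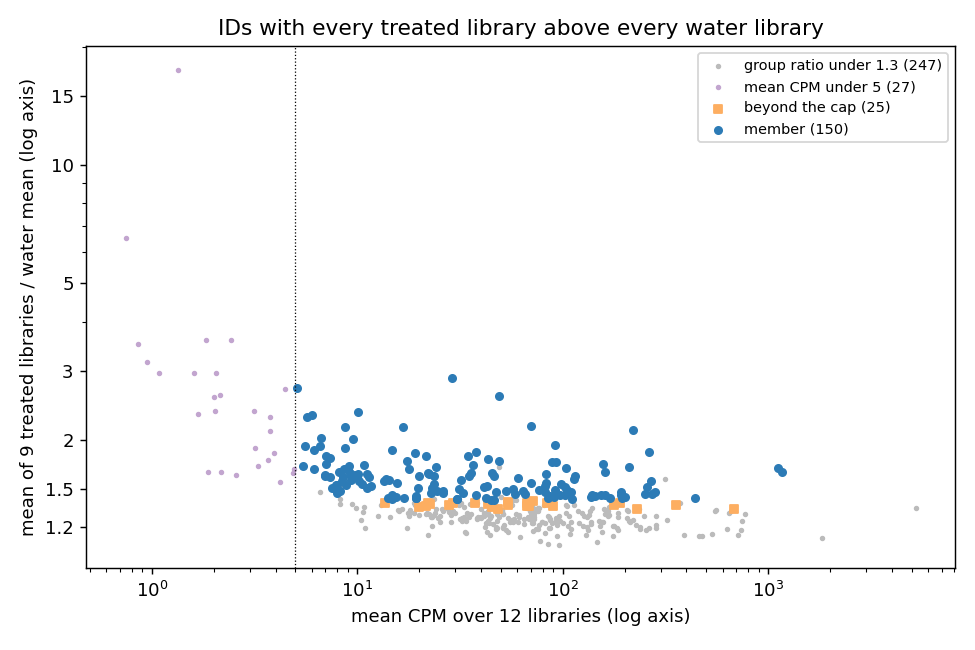
The 449 IDs with every treated library above every water library, by mean CPM over 12 libraries and by the ratio of treated to water mean, both on log axes. The 150 members lie right of the dotted line at 5 CPM and from a ratio of 1.41 upward. The ratios of the 27 IDs left of the line rest on few reads.

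The edgeR test over all 21381 IDs can be set beside the members as a description, since the contrasts with water chose them. The choice raises the counts of members called against water, so these counts lend the excess no support. A member is called where its Benjamini-Hochberg adjusted p was under 0.05. Higher than water were 61 members in azoxystrobin, where 0.538% of all tested IDs were called higher, 74 members in VdAL with 0.702% of all IDs, and 50 in the combination with 0.491% of all IDs. Called in all 3 treatments were 26 members, in 2 treatments 39, in 1 treatment 29 and in none 56. Over all IDs 0.122%, or 26 IDs, were called higher in all 3 treatments, so those 26 are members without exception. The 3 contrasts share the water libraries.

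These counts changed when single libraries were left out, and so did the counts of all IDs called higher. The latter were 115, 150 and 105 in azoxystrobin, VdAL and the combination. At most, members called rose to 73, 82 and 64 and all IDs called higher to 190, 243 and 273, in that order. Falls are given next, and whether they came from the library itself or from the smaller group was not tested. The 61 members called in azoxystrobin became 14 without azoxystrobin replicate 3, 31 without azoxystrobin replicate 2, 27 without water replicate 1 and 36 without water replicate 3, and the count over all IDs became 19, 46, 48 and 105 in the same order. The 74 called in VdAL became 24 without VdAL replicate 3, 45 without VdAL replicate 2, 43 without water replicate 1 and 48 without water replicate 3, with 30, 75, 96 and 92 over all IDs. The 50 called in the combination became 22 without combination replicate 1, 24 without combination replicate 3 and 32 without water replicate 2, with 32, 38 and 40 over all IDs. With library sizes used without scaling factors, azoxystrobin against water had 252 IDs higher and 366 lower, in place of 115 and 454. For VdAL the split was then 276 and 484 in place of 150 and 608.

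The comparisons among the treated groups hold no water library and were not used directly by the rule. The rule does keep out IDs with a low treated group, which narrows the differences the members can show. By edgeR's quasi-likelihood test the combination differed from azoxystrobin in 0 members (adjusted p under 0.05), where 0% of all IDs were called. DESeq2 also called 0 members, while it called 132 of all IDs higher and 60 lower. At an unadjusted p under 0.05, 10 members were higher and 2 lower in the combination, beside 7.39% and 4.65% of all IDs. All 3 combination libraries lay above all 3 azoxystrobin libraries in 16 members and below them in 11, beside 10.8% and 9.15% of all IDs. The median log2 difference of the members was −0.03, and that of all tested IDs was 0.00.

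Against VdAL alone the combination differed in 0 members by edgeR and by DESeq2, with 0.0187% of all IDs, or 4, called by edgeR. DESeq2 called 217 of all IDs higher and 95 lower here. An unadjusted p under 0.05 was found for 9 members on the higher side and 5 on the lower side, beside 7.89% and 4.90% of all IDs. The libraries did not overlap in 9 members that were higher and 8 that were lower, beside 11.5% and 9.64% of all IDs. The members' median log2 difference was −0.05, and 55 of 150 estimates were above 0, or 36.7%, against 49.7% of all tested IDs.

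VdAL and azoxystrobin also differed in 0 members by edgeR and by DESeq2, where 0% of all IDs were called by edgeR and 7 IDs by DESeq2. At an unadjusted p under 0.05, 6 members were higher in VdAL and 2 lower, beside 1.70% and 1.66% of all IDs. All VdAL libraries lay above all azoxystrobin libraries in 13 members and below them in 4, beside 4.20% and 4.53% of all IDs. The median log2 difference was 0.01.

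The intervals of these differences were narrow enough to bound most members. The 95% interval lay within 2-fold in either direction for 147 members in the combination against azoxystrobin, 146 in the combination against VdAL and 149 in VdAL against azoxystrobin. These are 98%, 97.3% and 99.3% of members, against 86.1%, 85.7% and 92.1% of tested IDs at 5 CPM or more. Within 1.5-fold the interval lay for 91, 97 and 102 members, respectively, and for the others it reached beyond 1.5-fold. That is 60.7%, 64.7% and 68% of members, against 48.5%, 47.5% and 58.7% of tested IDs at 5 CPM or more. The rule keeps out IDs with a low treated group, which favours differences within these bounds. No adjusted p that missed the threshold shows that the treatments act alike on these IDs.

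**Figure D4:**
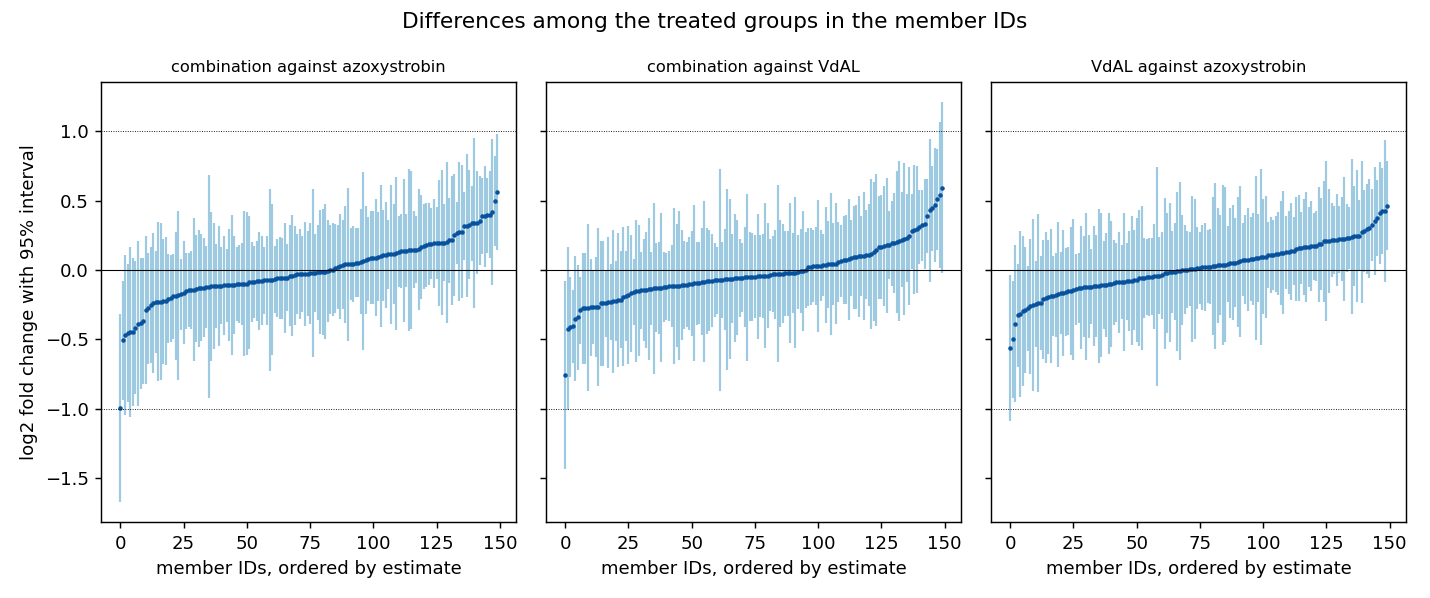
Log2 fold changes of the 150 members with 95% intervals from edgeR's quasi-likelihood fit, in the 3 comparisons among treated groups, each ordered by its own estimate. Dotted lines mark 2-fold. Most intervals cross 0 and stay between the dotted lines.

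The members with the smallest p in these comparisons show how far single IDs departed from the common level. BGIOSGA028653 stood at 60.9, 54.7 and 60.35 CPM in water, 77.4, 90.4 and 63.4 CPM in azoxystrobin, 88.8, 98.6 and 72.8 CPM in VdAL, and 109, 126 and 91.7 CPM with both agents. Every combination library was above every azoxystrobin library, by 91.7 against 90.4 CPM at the nearest. The log2 difference was 0.50 (95% interval 0.17 to 0.83, edgeR adjusted p = 0.238), and over 20 alternatives the adjusted p ran from 0.0411 to 0.652, passing the threshold under 1 of them, the fit with no filter on low counts.

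On the lower side of that comparison was EPlOING00000032601, whose values are given above. Its log2 difference between the combination and azoxystrobin was −0.997 (95% interval −1.68 to −0.32, edgeR adjusted p = 0.248), with an adjusted p from 0.113 to 0.636 under 20 alternatives. The 3 combination libraries were all below the 3 azoxystrobin libraries, at 5.68 against 5.90 CPM where they came closest.

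BGIOSGA014400 was nearly level between the single treatments and higher in the combination. It had 74.2, 74.9 and 68.1 CPM in water, 89.4, 91.9 and 104 CPM in azoxystrobin, 96.3, 103 and 86.7 CPM in VdAL, and 115.4, 146 and 114 CPM with both agents. The log2 difference of the combination from VdAL was 0.39 (95% interval 0.12 to 0.66, edgeR adjusted p = 0.205, and 0.140 to 0.702 under 20 alternatives). The 3 combination libraries lay above all libraries of both single treatments.

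BGIOSGA010848 went the other way, with its highest values in VdAL. It stood at 152, 143 and 118 CPM in water, 236, 210 and 219 CPM in azoxystrobin, 247, 295 and 290.3 CPM in VdAL, and 228, 197 and 202 CPM with both agents. The VdAL libraries lay above all others. The log2 difference of the combination from VdAL was −0.41 (95% interval −0.67 to −0.15, edgeR adjusted p = 0.176), and the adjusted p was 0.0589 to 0.618 under 20 alternatives.

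Between the single treatments, BGIOSGA015104 was the ID of smallest p on the higher side. Its values were 39.3, 27.8 and 26.2 CPM in water, 39.7, 47.7 and 48.0 CPM in azoxystrobin, 59.7, 57.2 and 69.7 CPM in VdAL, and 59.2, 58.0 and 56.1 CPM with both agents. All 6 libraries that received VdAL lay above the 3 given azoxystrobin alone, and azoxystrobin replicate 1 was within 1 CPM of water replicate 1. The log2 difference of VdAL from azoxystrobin was 0.46 (95% interval 0.15 to 0.78, edgeR adjusted p near 1, with 0.603 as the lowest of 20 alternatives).

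BGIOSGA031654 was on the lower side. It had 7.08, 7.25 and 5.99 CPM in water, 13.6, 14.8 and 13.2 CPM in azoxystrobin, 10.97, 9.19 and 9.20 CPM in VdAL, and 10.001, 11.1 and 8.08 CPM with both agents. The 3 azoxystrobin libraries stood above all libraries that received VdAL. The log2 difference was −0.50 (95% interval −0.92 to −0.08, edgeR adjusted p near 1, with 0.980 as the lowest of 20 alternatives).

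The combination lay close to the single treatments in most members and below the sum of their effects in all. Its mean was between the 2 single treatments in 51 members, above both in 35 and below both in 64. Among tested IDs at 5 CPM or more these shares were 21.7% between, 37.7% above and 40.5% below. The sum of the single log2 effects against water had a median of 1.27 over the members and the combination one of 0.63, and in 0 of 150 members was the combination above the sum. The choice of IDs for low water values favours this, because water enters the sum once more than it enters the combination, so no test is given. The highest treated group was VdAL in 62 members, azoxystrobin in 53 and the combination in 35. These are 41.3%, 35.3% and 23.3% of members, against 32.3%, 30.0% and 37.7% of tested IDs at 5 CPM or more. The ratio of the highest to the lowest treated group had a median of 1.16 and an upper quartile of 1.22, against 1.196 and 1.33 for those IDs. That ratio was under 1.2 in 98 members and over 1.5 in 2.

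VdAL replicate 1 stood apart from the other treated libraries in the members. It was the lowest of the 9 treated libraries in 52 members, or 34.7%, against 14.7% of tested IDs at 5 CPM or more, and 64% of members lay below their treated mean in it, against 53.1% of those IDs. In VdAL replicates 2 and 3 this was 35.3% and 37.3% of members, against 52.4% and 51.4%. In combination replicate 2, 62.7% of members lay below that mean, against 51.6%, but it was the lowest treated library in 14.7% of members, near its 15.9% of tested IDs at 5 CPM or more. The share of reads not aligned uniquely was 22.4%, 15.3% and 15.8% in VdAL replicates 1, 2 and 3, and 13.03% in combination replicate 2. Its part in the result was not tested beyond a fit with that share as a covariate. That fit called 76, 64 and 61 members higher than water with azoxystrobin, VdAL and both agents, and 229, 166 and 151 of all IDs.

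The rule was also applied to 11 libraries and the one left out was read, with the scaling of all 12 kept. The library left out thus had a part in the scaling. It was read against libraries used in the choice, so the shares are no test of how far the pattern extends. When an azoxystrobin library was left out, 177 to 187 IDs met the rule and the library left out lay above every water library in 92.0% to 95.5% of them. For the combination it was 88.5% to 96.0% of 174 to 200 IDs, and for VdAL replicates 2 and 3 it was 98.2% of 166 IDs each. Without VdAL replicate 1 there were 267 IDs, and that library was above all water libraries in 180, or 67.4%. Between 22.4% and 28.2% of the tested IDs at 5 CPM or more had the left-out treated library above every water library. The median ratio to water in the left-out library was 1.23 for VdAL replicate 1, where the libraries used in the choice gave 1.55. For the other treated libraries it was 1.42 to 1.59, where the libraries used gave 1.48 to 1.54. The water libraries were shared between choice and reading in these counts and ratios. The IDs were chosen for low values in those libraries, which raises the shares. The tested IDs at 5 CPM or more were not chosen in that way.

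For a water library the mark was to lie below all 9 treated libraries, which is stricter than to lie above 3 water libraries, so the shares of the 2 kinds are not compared. The treated libraries were shared between choice and reading here, and the IDs were chosen for high values in them, which raises the shares below. Without water replicate 1, 323 IDs met the rule, and it lay below every treated library in 172 of them, or 53.3%. For water replicate 2 it was 189 of 321 IDs, or 58.9%, and for water replicate 3 172 of 367 IDs, or 46.9%, beside 14.9% to 17.1% of tested IDs at 5 CPM or more. The median ratio of the treated mean to the water library left out was 1.26, 1.28 and 1.24 for replicates 1, 2 and 3, where the water libraries used in the choice gave 1.53, 1.57 and 1.59. The left-out water library was below the treated mean in 79.6% to 87.5% of the chosen IDs. Of the 150 members, 139, 140 and 133 were among the IDs chosen without water replicate 1, 2 or 3.

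**Figure D5:**
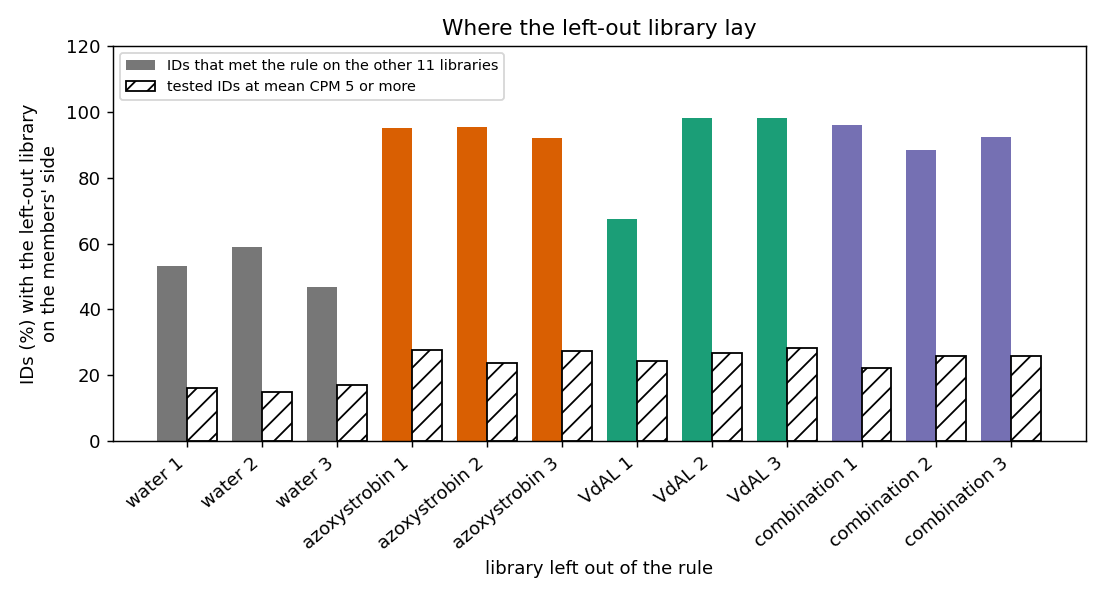
Share of IDs whose left-out library lay on the members' side, above every water library if treated and below every treated library if water. Filled bars are the IDs that met the rule on the other 11 libraries and hatched bars the tested IDs at 5 CPM or more. Filled bars are raised by the choice, which used the same libraries that the left-out one was read against. The water libraries reach 46.9% to 58.9%, VdAL replicate 1 reaches 67.4% and the other treated libraries 88.5% to 98.2%.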

How the data were processed

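The authors deposited raw read counts per gene ID and library, with closing rows for reads given to no gene. The submitters' processing notes name TopHat2 2.1.0, HTSeq 0.6.1 and edgeR 3.16.3, and a pig genome build, Sscrofa10.2, while 40745 IDs start with BGIOSGA, 47693 with EPlOING and 0 with the pig prefix. The build, strand setting and annotation behind these counts were not given in the sources used here, so overlapping or near-identical genes may share or lose reads and no coordinates are given. The closing rows stayed out of library sizes and tests. Of all reads recorded in a library, reads outside genes made up 42.2% to 49.6%, reads not aligned uniquely 9.01% to 22.4% and reads fitting several genes 0.646% to 0.833%.

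IDs were kept by filterByExpr (minimum count 10, by group), library sizes were scaled by TMM (factors 0.926 to 1.05), and a group-means model over all 12 libraries was tested with the quasi-likelihood functions of edgeR 4.0.16 in R 4.3.3. P-values are two-sided, with Benjamini-Hochberg adjustment over all 21381 tested IDs. The fit and rule were also run on counts drawn with known changes from the levels and spread of these data. The drawn counts held no outlying library or area effect, so that run concerns the calculation and not the data. No pair of libraries within a group agreed within sampling noise (lowest chi-square per degree of freedom 4.35). The members and the ID lists were chosen with earlier results of these data known. Named IDs are the members with the 2 largest ratios and the 2 highest levels, the smallest p in each direction among treated groups, the widest and narrowest gaps, the extremes of evenness, the EPlOING member of largest ratio, and the IDs beside each threshold. Lists of alternative respiration, defence, detoxification, photosynthesis and tissue genes had 0 members that could be measured, since 0 of the IDs matched the 39387 genes of the reference table. Alternatives were other scaling, no filter, DESeq2 1.42.0, a replicate block, a covariate, smaller fits, other thresholds and each library left out. The readings of a left-out library were added after seeing the data.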

Additional observations from a re-analysis of the deposited data

How the results depend on the processing

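The number of IDs that met the rule, 175, was 291 with a group ratio of 1.2 and 56 with 1.5. With the TMM factors computed again on 11 libraries it ran from 166 to 366, the values over 1.5 times being 325, 360 and 366 without water replicates 1, 2 and 3 and 269 without VdAL replicate 1. Of the 150 members, 144 met the rule with library sizes alone and 147 with no filter. Members called were 0 in each comparison among treated groups under every alternative run, except 1, BGIOSGA028653, for the combination against azoxystrobin with no filter. With each library left out they were 0 to 0 there, and against water 14 to 73 in azoxystrobin, 24 to 82 with VdAL and 22 to 64 with the combination. All IDs called higher than water were then 19 to 190, 30 to 243 and 32 to 273, in the same order. Of the members, DESeq2 called 101 in azoxystrobin, 104 with VdAL and 87 with the combination, and fits on the 6 libraries compared called 35, 34 and 26. Of all IDs, DESeq2 called 338, 335 and 268 higher than water, and the fits on 6 libraries 44, 46 and 41.

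Over all IDs, the counts as reported were 569, 758 and 366 for azoxystrobin, VdAL and the combination against water, 0 and 4 for the combination against azoxystrobin and VdAL, and 0 for VdAL against azoxystrobin. In that order DESeq2 gave 1034, 1153, 741, 192, 312 and 7, and no filter gave 1385, 1438, 1048, 818, 944 and 54. The fits on 6 libraries gave 340, 440, 177, 145, 386 and 0, and library sizes alone gave 23 for the combination against VdAL. Leaving out 1 library gave 130 to 758, 146 to 874, 110 to 711, 0 to 49, 0 to 151 and 0 to 0. The cause of these differences was not tested.

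Pairing by the replicate numbers in the titles was not seen in the levels, which does not show that the libraries were unpaired. Deviations of same-numbered libraries from their group means correlated at −0.20 to 0.10, and 3 of 12 libraries correlated best with their own number. With a replicate block the members called against water were 51, 67 and 43, beside 81, 114 and 91 of all IDs called higher, and the combination against VdAL had 0 IDs. The log2 differences of the single IDs run under the alternatives kept their sign, and the members' median differences were not run under them. In azoxystrobin against water, BGIOSGA011688 kept a log2 difference of 1.14 to 1.64 and lost its call under 5 of 20 alternatives, and BGIOSGA004313 kept 0.48 to 0.66 and lost its call under 2.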

Other observations

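The threshold of 5 CPM left out 27 IDs that met the rest of the rule. A pair of them with very few reads in water is given by reads alone, and both were named after their values were seen. BGIOSGA006343 had 0, 3 and 0 reads in the water libraries, 11, 4 and 5 reads in azoxystrobin, 26, 23 and 21 reads in VdAL, and 9, 12 and 16 reads in the combination. BGIOSGA002065 had 2, 0 and 1 reads in water, 3, 6 and 5 in azoxystrobin, 10, 12 and 13 in VdAL, and 8, 2 and 9 in the combination. The VdAL libraries had the most reads for both IDs. No fold is given at counts this low, and neither ID is a member.

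The rule was also turned round, with every treated library below every water library and the water mean at least 1.3 times each treated mean. Of the 21381 tested IDs, 355 met it, against 175, or 0.818%, for the rule as used. Under the other scalings the rule as used was met by 191 to 225 IDs. The rule turned round was not run under them, so how far the difference depends on scaling was not tested.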
